A study of Homo sapiens with 6 samples.

Results

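The 10 genes described here are YAP1, WWTR1 (which encodes TAZ), TEAD1, TEAD2, TEAD3, TEAD4, VGLL4, LATS1, STK3 and NF2. They were chosen by symbol, as genes of the Hippo pathway, with earlier results of these data known. Of the 21293 genes of an RNA-seq table, all 10 were found and passed the filter on low values. RNA was taken from H2087-LCC cells, a latency competent derivative of the human lung adenocarcinoma line H2087, labeled as a dormant metastatic derivative. The cells had been kept for 3 days with SB505124 (SB), which blocks the TGFβ type I receptor kinase, or with TGFβ for 3 days or for 7 days. Each of the 3 groups holds 2 libraries, which the study calls technical replicates, so the p-values may measure only technical spread. All libraries come from 1 selected cell population, and the SB group has no 7-day libraries. A difference between 7 days of TGFβ and SB therefore cannot be told apart from a difference of time in culture.

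In the Hippo pathway, the kinases encoded by STK3 and its close relative STK4 activate LATS1 and LATS2, which phosphorylate the coactivators YAP and TAZ and keep them out of the nucleus. NF2 encodes merlin, a membrane-linked scaffold that brings LATS kinases to the cell cortex. Unphosphorylated YAP and TAZ enter the nucleus, where they bind TEAD transcription factors and drive genes of growth and adhesion, and VGLL4 competes with them for TEAD. Cell shape, actin tension and contact with neighboring cells all act on this pathway, largely through phosphorylation and protein location, which mRNA levels do not measure.

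The deposited values are read counts that the authors normalized by library size, written as whole numbers and called normalized counts here. They summed to between 34306283 and 36340734 per library. Fold changes are differences of log2(normalized count + 1), fitted with limma over 14395 genes with a mean of at least 10, and a gene is said to have risen or fallen at a Benjamini-Hochberg adjusted p under 0.05. SMAD7, a standard TGFβ target, had 79 to 112 normalized counts with SB and 747 to 916 with TGFβ. Of 9 epithelial and lung adenocarcinoma markers, 6 fell and 1 rose at 3 days and again at 7 days against SB, and their sum was 105957 and 123822 with SB, 98913 and 111202 at 3 days, and 102076 and 89158 at 7 days. The keratins KRT8 and KRT18 were at 31757 or more in every library. The E-cadherin gene CDH1 was at 371 and 635 with SB and at 9 and 10 at 7 days, the lung marker NKX2-1 at 2784 and 2908 with SB and 712 to 857 with TGFβ, and the surfactant gene SFTPB at 1104 and 8273 with SB and 19 to 24 with TGFβ. The part of these changes in the values of the 10 genes was not tested. The leukocyte gene PTPRC was at 0 to 4 and the endothelial gene VWF at 3 to 13. The 5 leukocyte markers summed to 4847 to 5159 with SB, 4995 to 5713 at 3 days and 5601 to 6133 at 7 days, of which CD68, also a gene of lysosomes, made up 4368 to 5113, and CSF1R stood at 31 to 34 with SB and 626 to 1114 with TGFβ. The 4 endothelial markers summed to 160 and 294 with SB, 93 and 109 at 3 days, and 109 and 132 at 7 days. The 2 SB libraries differed from each other more than the other pairs did, with a squared difference 11.0 times the variance of counting in the median gene, against 8.81 at 3 days and 7.35 at 7 days.

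The genes lie on several chromosomes of GRCh37, whose coordinates are those of hg19. YAP1 and TEAD1 are both on the plus strand of chromosome 11, at positions 101981178 to 102104155 and 12695968 to 12966284. WWTR1 lies on the minus strand of chromosome 3, at 149235022 to 149454501, and VGLL4 on the same strand at 11597543 to 11812824. TEAD2 is on chromosome 19 at 49843852 to 49865714 (minus strand), TEAD3 on chromosome 6 at 35441374 to 35464856 (minus) and TEAD4 on chromosome 12 at 3068496 to 3149842 (plus). NF2 is on chromosome 22 at 29999545 to 30094587 (plus), and LATS1 on chromosome 6 at 149979289 to 150039241 (minus). The values are sums over the exons of each gene. The library kit did not mark strand, and exons on the opposite strand overlapped 23.8% of the exon bases of VGLL4, 10.7% of TEAD2, 10.1% of YAP1, 9.05% of WWTR1, 3.03% of LATS1 and 0.84% of STK3. For NF2, TEAD1, TEAD3 and TEAD4 there was no such overlap.

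In the main fit by group alone, YAP1 did not pass the test in any comparison. TEAD2, TEAD3 and NF2 changed over 2-fold at 7 days against SB. The promoter windows of these genes are shown to compare their letters. Each is the 250 bases before a RefSeq transcription start on GRCh38.p14, 5′ to 3′ along the gene's strand, at chr11:102110197-102110446 (plus) for YAP1, chr19:49362417-49362666 (minus) for TEAD2, chr6:35497080-35497329 (minus) for TEAD3 and chr22:29603383-29603632 (plus) for NF2. Capitals mark the TEAD motif GGAATG or its complement CATTCC.
YAP1: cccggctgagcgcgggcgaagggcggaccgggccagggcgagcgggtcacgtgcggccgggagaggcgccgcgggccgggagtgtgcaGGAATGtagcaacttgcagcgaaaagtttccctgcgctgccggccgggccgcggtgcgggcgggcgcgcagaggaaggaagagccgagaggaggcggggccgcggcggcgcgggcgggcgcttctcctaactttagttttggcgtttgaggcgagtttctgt
TEAD2: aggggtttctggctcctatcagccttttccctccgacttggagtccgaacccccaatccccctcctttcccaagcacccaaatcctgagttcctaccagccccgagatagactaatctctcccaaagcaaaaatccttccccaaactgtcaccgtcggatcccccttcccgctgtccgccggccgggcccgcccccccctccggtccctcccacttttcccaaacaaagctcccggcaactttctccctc
TEAD3: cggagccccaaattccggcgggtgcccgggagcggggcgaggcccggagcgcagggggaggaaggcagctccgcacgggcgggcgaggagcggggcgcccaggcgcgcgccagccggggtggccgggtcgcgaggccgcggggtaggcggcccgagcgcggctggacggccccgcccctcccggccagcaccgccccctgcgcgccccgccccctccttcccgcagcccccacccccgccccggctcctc
NF2: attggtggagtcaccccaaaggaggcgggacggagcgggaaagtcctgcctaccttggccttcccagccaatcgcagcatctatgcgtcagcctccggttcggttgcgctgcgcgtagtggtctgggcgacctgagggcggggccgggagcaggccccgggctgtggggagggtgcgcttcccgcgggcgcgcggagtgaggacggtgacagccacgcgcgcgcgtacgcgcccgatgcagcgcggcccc
The TEAD motif was found in the YAP1 window, 162 bases before the start, and in none of the other 14 windows read for the 7 genes YAP1, WWTR1, TEAD2, TEAD3, VGLL4, LATS1 and NF2. Over 35116 promoter windows of the same length, 11.9% held it. The SMAD motif CAGACA (complement TGTCTG) was in 1 of the 15 windows, before 1 of 5 starts of VGLL4, against 13.6% of all windows. The AP-1 motif TGACTCA (complement TGAGTCA) and the E-box CACCTG (complement CAGGTG) were in 0 of the 15 windows, against 4.20% and 17.5% of all. These matches describe letters in the window and not bound sites. The TEAD3 window was 84.0% G and C, that of YAP1 72.0%, that of NF2 71.6% and that of TEAD2 60.0%.

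Per kilobase of exon, WWTR1 was the most abundant of the 10 mRNAs. Its mean over the 6 libraries was 3685 normalized counts per kb, followed by YAP1 with 1877, TEAD1 with 1245 and NF2 with 778. LATS1 came next with 290, TEAD3 with 206, TEAD2 with 194, TEAD4 with 179, VGLL4 with 115 and STK3 with 80.2. WWTR1, YAP1 and TEAD1 did not overlap one another in any library. NF2 overlapped TEAD1 with SB, when it was at 1124 and 1282 per kb against 1157 and 1163, and lay below it in all 4 TGFβ libraries. TEAD2, TEAD3 and TEAD4 overlapped one another over the 6 libraries, and each of them also overlapped LATS1 and VGLL4. VGLL4 and STK3 overlapped as well. With the length of the canonical transcript in place of all exons, the first 4 places were unchanged, STK3 moved to rank 5 and TEAD3 to rank 10.

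**Figure D1:**
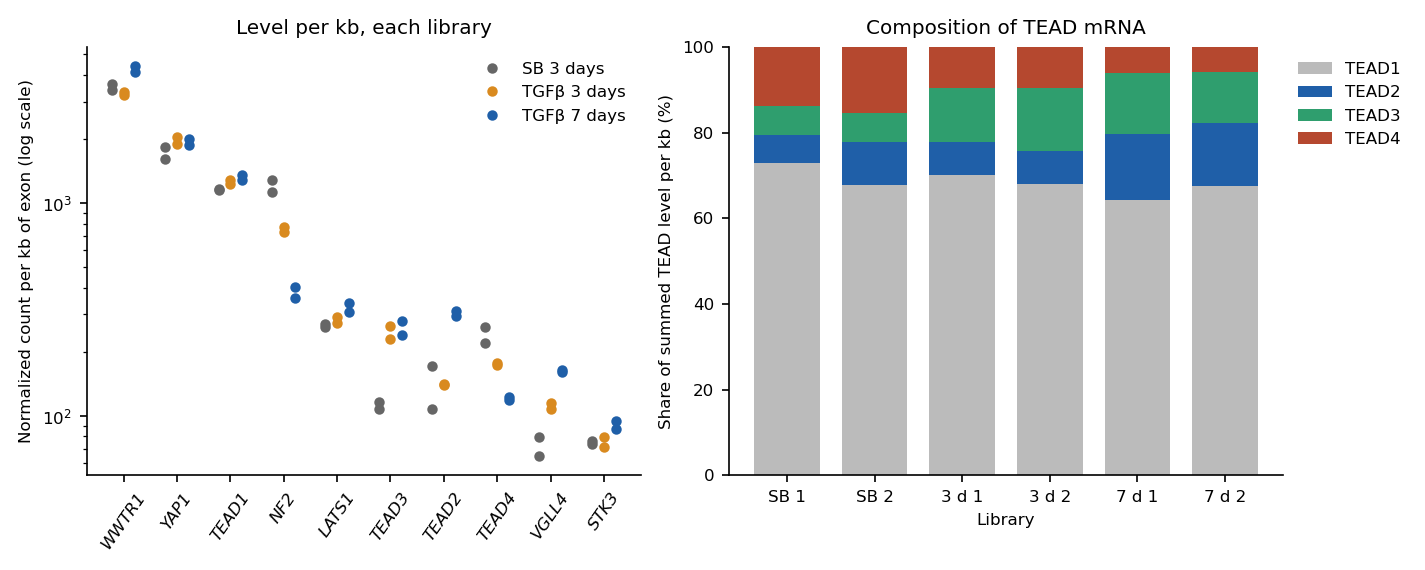
Left, normalized count per kb of exon (log scale) of each of the 10 genes, 1 point per library, gray for SB, orange for 3 days and blue for 7 days of TGFβ. Right, share (%) of TEAD1 to TEAD4 in the summed TEAD level per kb in each library: TEAD4 takes 13.7% and 15.4% with SB and 6.18% and 5.90% at 7 days, and TEAD2 takes 8.40% on average with SB and 15.1% at 7 days.

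The coactivator gene YAP1 changed little. YAP1 had 11587 and 10196 normalized counts with SB, 12882 and 11990 after 3 days of TGFβ, and 11797 and 12612 after 7 days. The TGFβ libraries all lay above the SB libraries, and the 3-day and 7-day libraries overlapped. The log2 fold change of YAP1 against SB was 0.19 at 3 days (95% interval 0.00 to 0.39, limma adjusted p = 0.125) and 0.17 at 7 days (-0.027 to 0.36, adjusted p = 0.132). These intervals leave room for a rise of up to about 0.39 on the log2 scale, and YAP1 passed the threshold in both comparisons once SB replicate 1 was left out (0.29 and 0.26).

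WWTR1 rose late. It had 28401 and 30372 normalized counts with SB, 27797 and 26946 at 3 days, and 34468 and 36683 at 7 days. The 7-day libraries were the highest and the 3-day libraries the lowest, with no overlap between groups. Its log2 fold change was -0.10 at 3 days against SB (SE 0.079, adjusted p = 0.366), 0.28 at 7 days against SB (adjusted p = 0.011) and 0.38 at 7 days against 3 days (adjusted p = 0.00398), that is 1.30-fold. Both later calls were lost without TGFβ 7-day replicate 2 (0.23 and 0.33, adjusted p = 0.136 and 0.0729). The antisense gene WWTR1-AS1, which shares exon bases with WWTR1, averaged 38 normalized counts with SB, 31.5 at 3 days and 23.5 at 7 days. Per kb, WWTR1 stood at 2.05 ± 0.282 times YAP1 with SB, 1.66 ± 0.0478 at 3 days and 2.20 ± 0.00704 at 7 days (mean ± SD, n = 2).

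The 4 TEAD genes, which encode the DNA-binding partners of YAP and TAZ, did not move as 1 group. TEAD3 rose early and TEAD2 late, and TEAD4 fell at both times. TEAD1, the most abundant, did not pass the test in any comparison of the main fit by group alone. TEAD1 had 12446 and 12381 normalized counts with SB, 13709 and 13189 at 3 days, and 13694 and 14534 at 7 days. Its log2 fold change at 7 days against SB was 0.18 (95% interval 0.016 to 0.35, adjusted p = 0.0608), and at 3 days 0.12 (-0.053 to 0.28, adjusted p = 0.29).

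TEAD3 had 327 and 355 normalized counts with SB, 702 and 809 at 3 days, and 853 and 730 at 7 days. Every TGFβ library was above both SB libraries, and the 3-day and 7-day libraries overlapped. It rose 2.21-fold at 3 days (log2 fold change 1.14, SE 0.131, adjusted p = 4.52e-05) and 2.31-fold at 7 days (1.21, adjusted p = 1.3e-05). Between 7 and 3 days it differed by 0.066 (95% interval -0.22 to 0.35, adjusted p = 0.73), and of all genes tested 86.2% had a larger absolute difference.

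TEAD2 took another course. It had 322 and 511 normalized counts with SB, 414 and 419 at 3 days, and 923 and 875 at 7 days. The SB libraries stood on either side of the 3-day libraries, and both 7-day libraries were above all others. It rose 2.21-fold at 7 days against SB (log2 fold change 1.15, SE 0.180, adjusted p = 0.000224) and 2.15-fold against 3 days (1.11, adjusted p = 0.00102), while the 3-day value was 0.038 (95% interval -0.36 to 0.43, adjusted p = 0.899). Only 5.81% of the genes tested had a larger absolute difference between 7 and 3 days. CD37, whose exons overlap those of TEAD2 on the opposite strand, averaged 7.50 normalized counts with SB, 10.5 at 3 days and 13.5 at 7 days.

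TEAD4 had 499 and 598 normalized counts with SB, 402 and 395 at 3 days, and 280 and 270 at 7 days. The groups did not overlap, and each was lower than the one before it in time of TGFβ. Its log2 value fell by 0.45 at 3 days (SE 0.136, adjusted p = 0.0264), by 0.99 at 7 days against SB (adjusted p = 8.38e-05), and by 0.53 at 7 days against 3 days (adjusted p = 0.0114). The 3-day call was lost without SB replicate 2 (-0.32, adjusted p = 0.124), without either 3-day library (-0.47 and -0.44, adjusted p = 0.102 and 0.105) or when genes with low values were kept in the fit (adjusted p = 0.06). The call between 7 and 3 days was lost without 3-day replicate 1 (-0.52, adjusted p = 0.0625) or either 7-day library (-0.56 and -0.51, adjusted p = 0.0563 and 0.082).

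In levels per kb, the summed TEAD mRNA was 1598 and 1708 with SB, 1827 and 1812 at 3 days, and 1992 and 2010 at 7 days, so it did not overlap between groups. TEAD1 made up 70.3% ± 3.57 of it with SB, 69.1% ± 1.49 at 3 days and 65.9% ± 2.36 at 7 days (mean ± SD, n = 2). The TEAD3 share was 6.77% ± 0.0744 with SB, 13.6% ± 1.44 at 3 days and 13.0% ± 1.51 at 7 days. The ratio of TEAD2 to TEAD4 was below 1 with SB (0.493 and 0.652) and at 3 days (0.786 and 0.810), and above it at 7 days (2.52 and 2.47). The order of these paralogs was therefore the other way round at 7 days, and the same held with canonical transcript lengths (0.590 with SB, 0.822 at 3 days and 2.57 at 7 days, as means).

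VGLL4, which encodes the TEAD cofactor that competes with YAP and TAZ, rose at both times. It had 467 and 572 normalized counts with SB, 825 and 772 at 3 days, and 1188 and 1158 at 7 days. The 3 groups did not overlap and stood in the order of time with TGFβ. It rose 1.54-fold at 3 days (log2 fold change 0.63, SE 0.123, adjusted p = 0.00244), 2.27-fold at 7 days against SB (1.18, adjusted p = 9.36e-06) and 1.47-fold at 7 days against 3 days (0.55, adjusted p = 0.00546). ATG7, an autophagy gene whose exons overlap VGLL4 on the opposite strand, averaged 523.5 with SB, 597.5 at 3 days and 548.0 at 7 days, and did not pass the test in any comparison (adjusted p from 0.297 to 0.674). Per kb, VGLL4 equaled 1.38% ± 0.194 of the summed YAP1 and WWTR1 with SB, 2.11% ± 0.0299 at 3 days and 2.64% ± 0.166 at 7 days (mean ± SD, n = 2).

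NF2 had the largest fall of the 10 genes in every comparison. It had 9479 and 8308 normalized counts with SB, 5409 and 5682 at 3 days, and 2981 and 2645 at 7 days. The groups did not overlap and stood in falling order from SB to 3 days to 7 days. The log2 value of NF2 fell by 0.68 at 3 days (1.60-fold lower, SE 0.096, adjusted p = 0.000229), by 1.66 at 7 days against SB (3.16-fold lower, adjusted p = 6.24e-08) and by 0.98 at 7 days against 3 days (1.97-fold lower, adjusted p = 3.91e-05). Of the genes tested, 7.47% had a larger absolute change at 7 days against SB and 16.7% at 3 days. Per kb, NF2 stood at 0.697 ± 0.00196 of YAP1 with SB, 0.381 ± 0.0326 at 3 days and 0.197 ± 0.0259 at 7 days (mean ± SD, n = 2). These 3 calls held under each of the 16 alternatives run gene by gene, which include leaving out each library.

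Among the kinases, LATS1 rose at 7 days and STK3 passed the test in no comparison of the main fit by group alone. LATS1, which phosphorylates YAP and TAZ, had 2215 and 2285 normalized counts with SB, 2468 and 2310 at 3 days, and 2622 and 2884 at 7 days. The groups did not overlap. It rose by 0.29 on the log2 scale at 7 days against SB (1.22-fold, SE 0.092, adjusted p = 0.0188), a call lost without SB replicate 1 (0.27, adjusted p = 0.0597), without 7-day replicate 2 (0.22, adjusted p = 0.186) or with limma without a trend (adjusted p = 0.0561). At 3 days its value was 0.086 (95% interval -0.12 to 0.29, adjusted p = 0.525).

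STK3, which encodes the kinase MST2 upstream of LATS1, had 927 and 963 normalized counts with SB, 1002 and 897 at 3 days, and 1093 and 1186 at 7 days. The 3-day libraries stood on either side of the SB libraries, and both 7-day libraries were above all others. The log2 fold change was 0.0049 at 3 days (95% interval -0.23 to 0.24, adjusted p = 0.978) and 0.27 at 7 days against SB (0.033 to 0.50, adjusted p = 0.0523). The 7-day value missed the threshold and passed it (adjusted p = 0.0499) when genes with a mean under 50 were left out.

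**Figure D2:**
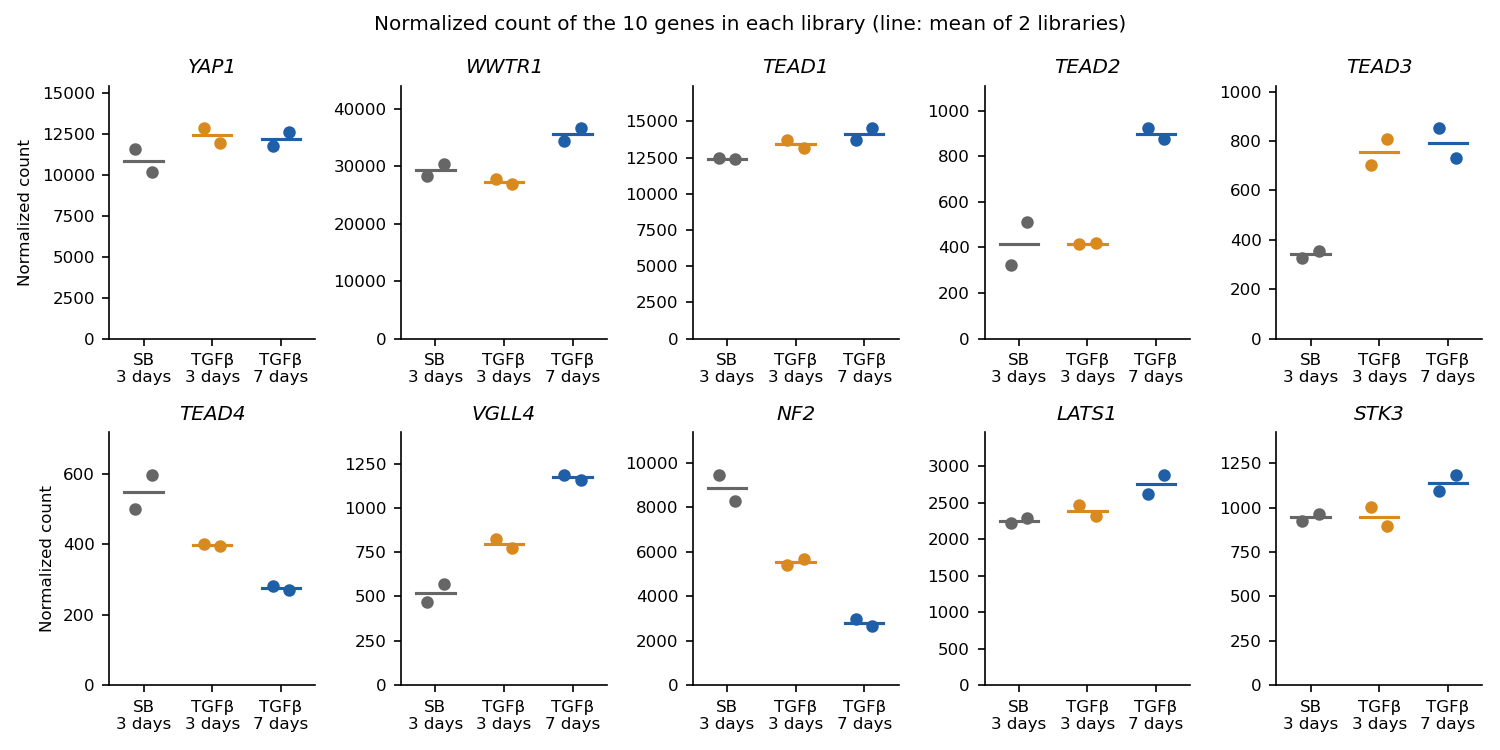
Normalized count of each of the 10 genes (vertical axes, each from 0), 1 point per library and a line for the mean of the 2 libraries of a group, for SB at 3 days and TGFβ at 3 and 7 days. NF2 drops from 9479 and 8308 to 2981 and 2645, TEAD2 stands apart only at 7 days, and TEAD3 is already raised at 3 days.

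Counted together, 4 of the 10 genes passed the test at 3 days against SB (TEAD3 and VGLL4 higher, TEAD4 and NF2 lower), where 29.0% of all genes tested did (14.9% higher and 14.0% lower). At 7 days against SB it was 7 of the 10, with WWTR1, TEAD2, TEAD3, VGLL4 and LATS1 higher and TEAD4 and NF2 lower, against 54.5% of all genes (27.7% higher and 26.9% lower). Between 7 and 3 days it was 5, with WWTR1, TEAD2 and VGLL4 higher and TEAD4 and NF2 lower, against 33.2% (17.0% higher and 16.2% lower). With 10 genes, these shares are near the background, and the genes are described for their own values. Their median log2 fold change was 0.062 at 3 days, 0.27 at 7 days and 0.14 between 7 and 3 days, against -0.022, -0.00080 and 0.019 over all genes tested. The 3 comparisons share libraries and are not independent of each other. An exact permutation test of 2 libraries against 2 cannot give a two-sided p under 0.333 for a single gene.

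**Figure D3:**
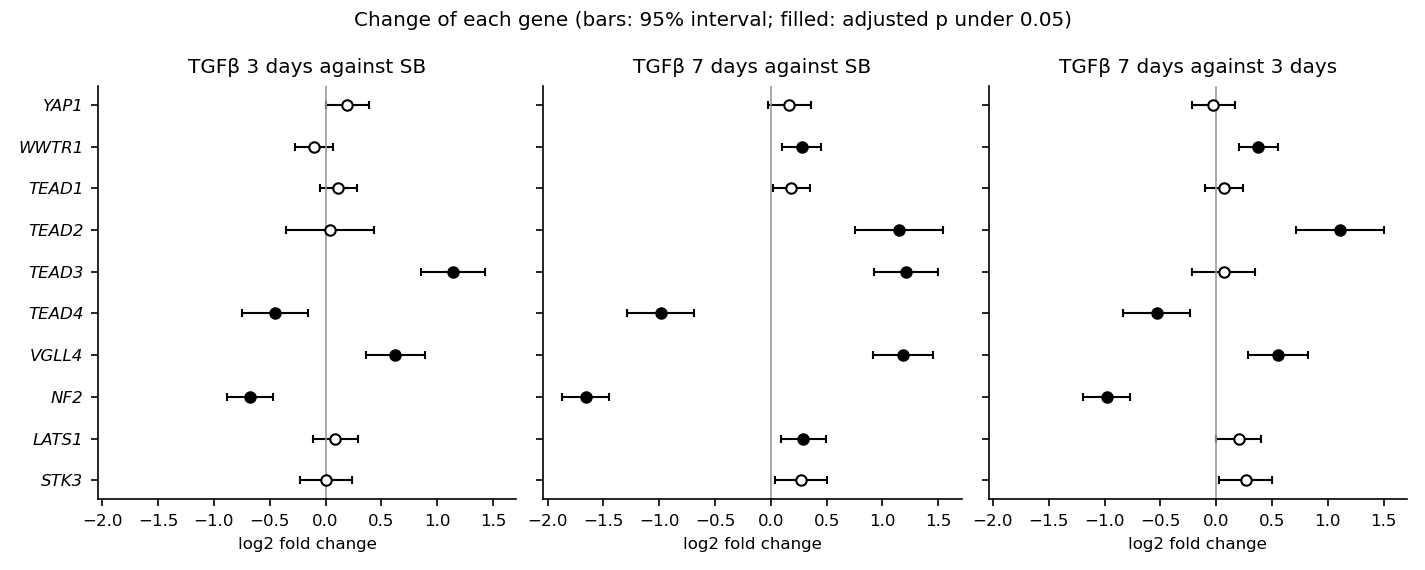
Log2 fold change of each gene (point) with its 95% interval (bar) in the 3 comparisons, filled where the limma adjusted p is under 0.05 and open otherwise. NF2 and TEAD4 are filled on the left of 0 in all 3 panels, VGLL4 is filled on the right in all 3, and YAP1 and TEAD1 are open in all 3.

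The genes whose pattern over the 6 libraries was most like each member were found by the root mean square difference of centered log2 values among 11389 genes with a mean of at least 100. For NF2 these were ZNF114 (0.0742), NOL6 (0.0823) and DMKN (0.0840), and for TEAD4 CGNL1 (0.0541), ZNF714 (0.0564) and ZNF107 (0.0621). For TEAD2 they were ARHGEF25 (0.0506), MAP3K12 (0.0651) and PIGZ (0.0769), and for TEAD3 ARHGEF18 (0.0820), SMURF1 (0.0843) and NDRG1 (0.0846). VGLL4 was nearest to PPM1M (0.0182), CBLB (0.0568) and GPR155 (0.0575). WWTR1 was nearest to FAM213A (0.0278), B4GALT5 (0.0320) and OTUD7B (0.0329), and LATS1 to RBBP5 (0.0148), AHCYL1 (0.0199) and GPBP1L1 (0.0229). Among the 10 genes themselves, TEAD4 and NF2 were each other's nearest (0.311), as were TEAD3 and VGLL4 (0.263) and LATS1 and STK3 (0.0395). With 3 groups of 2 libraries, many genes share such a course, and likeness of this kind is a description.

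Around the 10 genes, 53 others of the pathway were listed, of which 51 were in the table and 44 were tested. At 3 days against SB 10 rose and 5 fell, at 7 days against SB 16 rose and 12 fell, and between 7 and 3 days 7 rose and 9 fell, out of 44 each time. Over all genes tested, the shares higher and lower were 14.9% and 14.0%, 27.7% and 26.9%, and 17.0% and 16.2%. Their median log2 fold changes of 0.041, 0.12 and 0.0016 were near those of all genes. By role, of 11 kinases and their adaptors 6 rose and 1 fell at 7 days against SB. Of 10 upstream scaffolds and polarity proteins tested, 3 rose and 5 fell, and of 6 RASSF genes 2 rose and 3 fell. In the STRIPAK phosphatase complex, which counters the kinases encoded by STK3 and STK4, 4 of 10 rose and 0 fell. Of the LIM proteins that bind LATS kinases both of the 2 tested fell, and of 5 genes of YAP and TAZ turnover 1 rose and 1 fell. Beside the 27.7% higher and 26.9% lower of all genes in this comparison, lists this small are a description by count.

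The other 5 genes of the core kinase cassette are given beside their partners among the 10 genes, and no difference between relatives was tested. STK4, the close relative of STK3, had 3229 and 3048 normalized counts with SB, 5106 and 5014 at 3 days, and 5284 and 5688 at 7 days. It rose by 0.69 on the log2 scale at 3 days (adjusted p = 7.54e-05) and by 0.81 at 7 days against SB (adjusted p = 9.74e-06), where STK3 had 0.0049 and 0.27. LATS2, the relative of LATS1, had 694 and 652 with SB, 872 and 821 at 3 days, and 614 and 622 at 7 days. Its values were 0.33 at 3 days against SB (adjusted p = 0.0419) and -0.45 at 7 days against 3 days (adjusted p = 0.0091). The 3-day call was lost in 9 of 15 alternatives (adjusted p from 0.0582 to 0.238), among them without SB replicate 2 (0.29) or any 1 TGFβ library (0.29 to 0.37). The call between 7 and 3 days was lost without 3-day replicate 1 or either 7-day library (-0.41 to -0.46, adjusted p from 0.063 to 0.0768). SAV1, the scaffold of STK3 and STK4, was at -0.24 at 7 days against SB (adjusted p = 0.0723). There it passed the test with equal library totals (-0.29, limma adjusted p = 0.03), and it stood at -0.33 without SB replicate 2. MOB1A, a LATS coactivator, rose by 0.29 there (adjusted p = 0.0115), a call lost without 7-day replicate 2 (0.25, adjusted p = 0.112), and its relative MOB1B was at 0.10 (adjusted p = 0.373).

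The largest changes in the pathway lay outside the 10 genes. STK38L, an NDR kinase related to LATS1, had 1574 and 1493 normalized counts with SB, 6708 and 6325 at 3 days, and 8033 and 8678 at 7 days, a rise of 2.09 and 2.44 on the log2 scale (adjusted p = 9.48e-09 and 1.05e-09). FRMD6, which like NF2 encodes a FERM-domain protein, rose by 2.43 at 3 days and was still 1.21 above SB at 7 days, having fallen by 1.22 between them (adjusted p = 9.71e-05). It had 1395 and 1006 with SB, 6946 and 5908 at 3 days, and 2796 and 2691 at 7 days, so the FERM-domain genes NF2 and FRMD6 both fell between 3 and 7 days, while at 3 days 1 was below SB and the other above. AMOTL2, an angiomotin that binds YAP, had 4086 and 3092 with SB, 4258 and 3816 at 3 days, and 1074 and 910 at 7 days. It fell by 1.85 at 7 days against SB (adjusted p = 4.23e-07).

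AJUBA, a LIM protein that binds LATS kinases, had 3761 and 3420 normalized counts with SB, 2251 and 2101 at 3 days, and 1269 and 1288 at 7 days. Its fall of 0.72 at 3 days and 1.49 at 7 days against SB (adjusted p = 0.000118 and 1.26e-07) stood beside the 0.68 and 1.66 by which NF2 fell. WWC1, which encodes the scaffold KIBRA, a partner of merlin, had 408 and 443 with SB, 340 and 349 at 3 days, and 260 and 220 at 7 days. It fell by 0.83 at 7 days against SB (adjusted p = 0.000425). RASSF4 had 115 and 164 with SB, 152 and 153 at 3 days, and 343 and 272 at 7 days, a rise of 1.15 at 7 days against SB (adjusted p = 0.000452).

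**Figure D4:**
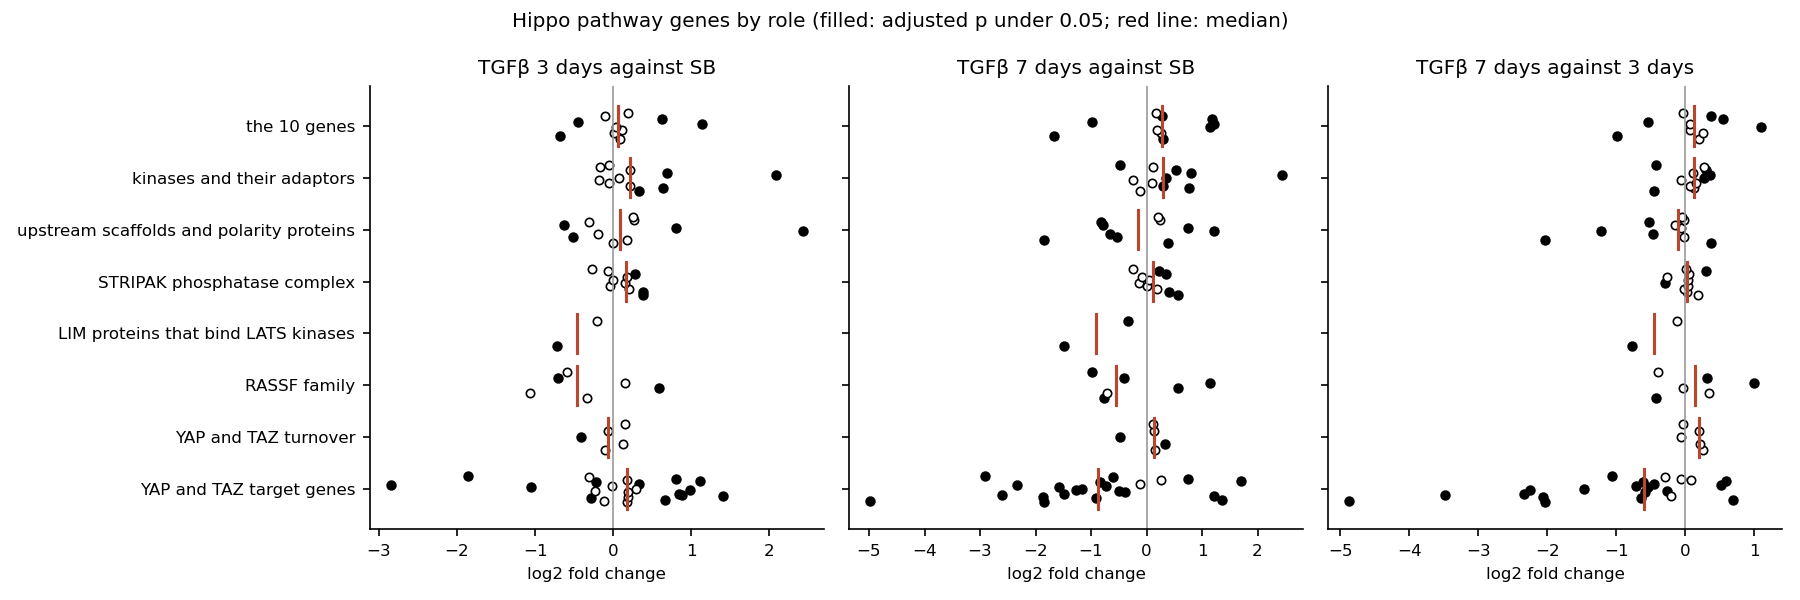
Log2 fold change of every tested gene of each list (1 point per gene, filled at a limma adjusted p under 0.05, vertical jitter only to separate points) in the 3 comparisons, with a red line at the median of the list. The 22 target genes have a median of 0.18 at 3 days, -0.88 at 7 days and -0.59 between 7 and 3 days.

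Genes that YAP and TAZ are known to drive through TEADs were listed. The list was chosen with earlier results of these data known, so its counts beside all genes are a description. All 22 listed genes were tested, and 3 of them, LATS2, AMOTL2 and PTPN14, are also among the other pathway genes above. At 3 days against SB 8 rose and 5 fell, with a median log2 fold change of 0.18. At 7 days against SB 4 rose and 16 fell (median -0.88), and between 7 and 3 days 3 rose and 15 fell (median -0.59). Of all genes tested, 14.9% were higher and 14.0% lower at 3 days against SB. At 7 days against SB 27.7% were higher and 26.9% lower, and at 7 days against 3 days 17.0% and 16.2%. The 13 target genes called at 3 days became 8 with no filter on low values and 7 with limma without a trend. Several of these genes also answer to other signals, TGFβ among them, and the part of YAP and TAZ in their change was not tested.

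The usual target genes CCN1 and CCN2 were higher than SB at 3 days and lower at 7 days. CCN1 (CYR61 in the table), a matricellular protein, had 11080 and 5910 normalized counts with SB, 15074 and 14686 at 3 days, and 1408 and 1262 at 7 days. CCN2 (CTGF in the table) had 3032 and 1724 with SB, 4608 and 3657 at 3 days, and 881 and 751 at 7 days. For both, the 3-day libraries were the highest and the 7-day libraries the lowest, with no overlap between groups. CCN1 rose by 0.88 at 3 days against SB (adjusted p = 0.00745), and it fell by 2.60 at 7 days against SB (adjusted p = 9.7e-07). CCN2 rose by 0.84 at 3 days (adjusted p = 0.0098), and it fell by 1.49 at 7 days against SB (adjusted p = 9.29e-05). The 2 SB libraries lay far apart for both genes, and the 3-day rise of CCN2 did not pass the test without SB replicate 2 (0.44, adjusted p = 0.065) or without 3-day replicate 1 (0.68, adjusted p = 0.0563). With no filter on low values neither rise passed (CCN1 adjusted p = 0.107, CCN2 0.114), nor with limma without a trend (0.0904 and 0.0969). The 3-day value of CCN1 ranged from 0.43 without SB replicate 2 to 1.33 without SB replicate 1.

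F3, which encodes tissue factor, had 2289 and 1420 normalized counts with SB, 3992 and 3210 at 3 days, and 782 and 720 at 7 days. It rose by 0.99 at 3 days (adjusted p = 0.00163) and fell by 1.26 at 7 days, both against SB (adjusted p = 0.000121). The 3-day rise of F3 missed the threshold with no filter on low values (adjusted p = 0.0549). ANKRD1, a muscle and stress gene, had 258 and 108 with SB, 173 and 138 at 3 days, and 3 and 6 at 7 days. It fell by 4.99 at 7 days against SB (adjusted p = 8.96e-07), and its value at 3 days was -0.11 (adjusted p = 0.864). Other targets had already fallen at 3 days, when TGFB2, a TGFβ ligand, was lower by 1.86 on the log2 scale (-1.86, adjusted p = 7.43e-06), and IGFBP3, an IGF-binding protein, was at -2.85 (adjusted p = 7.64e-08). At 7 days against SB they were at -2.92 and -2.33.

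Among the 10 genes at 7 days against SB, YAP1 was at 0.17, WWTR1 at 0.28 and TEAD1 at 0.18 on the log2 scale. Their lower 95% bounds were -0.027, 0.10 and 0.016. WWTR1 was at 0.23 without 7-day replicate 2. TEAD2 was at 1.15, TEAD3 at 1.21, TEAD4 at -0.99, VGLL4 at 1.18, NF2 at -1.66, LATS1 at 0.29 and STK3 at 0.27. The part of these values in the changes of the target genes was not tested.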

How the data were processed

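RNA-seq of poly(A) RNA (TruSeq RNA v2) was analyzed in 6 H2087-LCC libraries. Per the labels and the study's methods, read pairs were checked with FastQC 0.11.5, mapped to hg19 with STAR and counted per gene with HTSeq 0.6.1p1, and the authors normalized the counts by library size with DESeq2 (given as version 3.4). The deposited values, recorded under the unit score, are whole numbers after this normalization for 21293 genes, of which 1316 are at 0 in all libraries. Read counts before normalization were not used here, so a log-scale test took the place of a count test. The study's methods give 1 common range of raw reads per sample, and the exact depth of each library was not known here.

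Values were taken as log2(normalized count + 1). Genes whose mean was 10 or more (14395) entered 1 fit by limma 3.58.1 under R 4.3.3 (empirical Bayes with a trend, group as the only term, 3 residual degrees of freedom), with Benjamini-Hochberg adjustment at 0.05 per comparison. Intervals are 95% intervals from this fit. Exon lengths and coordinates came from GENCODE v44lift37 on GRCh37, and promoters from RefSeq on GRCh38.p14. No coordinates were carried between builds, and 7 members had promoter windows that were read.

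The members and gene lists were chosen with earlier results of these data known. All 10 members were named, with 5 other core genes, CCN1, CCN2 and ANKRD1, SMAD7, up to 6 genes of each list with the largest change among those called whose mean was 100 or more, and the 3 most similar genes per called member. A further gene named by this rule is not reported here. Alternatives were pseudocounts of 0.5 and 5, no filter or a mean of at least 50, other scalings, no trend, only the 4 libraries compared, a replicate block, leaving out each library, and an absolute log2 fold change of at least 0.5. A canonical transcript length and crossed replicate numbers were added after seeing the data.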

Additional observations from a re-analysis of the deposited data

Results flagged for a closer look

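For 5 of the 10 genes the change from SB differed between 3 and 7 days of TGFβ. Both changes are taken from the same SB libraries, whose mean cancels in the difference. The limma result is therefore that of 7 days against 3 days given above, and not a separate test. Of all genes tested, 33.2% differed between these times, so the count is near the background. The 7-day change minus the 3-day change, on the log2 scale, was 0.38 for WWTR1 (adjusted p = 0.00398), 1.11 for TEAD2 (adjusted p = 0.00102), 0.55 for VGLL4 (adjusted p = 0.00546), -0.53 for TEAD4 (adjusted p = 0.0114) and -0.98 for NF2 (adjusted p = 3.91e-05). For TEAD2 the 3-day change was 0.038 and the 7-day change 1.15, whereas NF2, TEAD4 and VGLL4 had passed the threshold in the same direction at 3 days. WWTR1 was at -0.10 at 3 days and 0.28 at 7 days. The WWTR1 difference was not called without TGFβ 7-day replicate 2 (0.33, adjusted p = 0.0729), and that of TEAD4 was not called without 3-day replicate 1 (-0.52) or either 7-day library (-0.56 and -0.51). As SB was sampled at 3 days alone, the time in culture cannot be told apart from the time with TGFβ.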

How the results depend on the processing

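Of 30 member results, 18 kept their direction and their side of the threshold under all 16 alternatives run gene by gene (the crossed replicate numbers below were run for counts only), and of 480 values 451 did; 17 lost the call, 3 gained it and 9 changed sign. All changes of NF2, and those of VGLL4, of TEAD3 against SB, of TEAD2 against SB and against 3 days at 7 days and of TEAD4 at 7 days against SB, kept their calls in all 16. With 2 libraries a group, small changes are at the limit of what the spread allows.

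At 3 days against SB, TEAD4 (-0.45) was not called without the filter (adjusted p = 0.06) or with a log2 change of at least 0.5, and TEAD2 and STK3 turned to -0.018 and -0.051 with equal library totals. At 7 days against SB, WWTR1 (0.28) and LATS1 (0.29) were not called without a trend (adjusted p = 0.0555 and 0.0561) or with the minimum change, and STK3 (0.27) was called at a mean of at least 50 (adjusted p = 0.0499). WWTR1 at 7 days against 3 days (0.38) missed the minimum change. The ratio of WWTR1 to YAP1 with canonical lengths was 2.91, 2.36 and 3.13 for SB, 3 days and 7 days. The cause was not tested.

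Called target genes at 3 days fell from 13 to 8 without the filter and 7 without a trend. Other pathway genes called fell from 15 to 9 without a trend at 3 days, from 28 to 17 with the minimum change at 7 days against SB, and from 16 to 10 without a trend and 5 with the minimum change at 7 against 3 days. Over all genes, 4170 calls at 3 days became 2724 with the minimum change. The 4775 calls between 7 and 3 days became 3042 without the filter, 3122 without a trend and 2705 with the minimum change. Scaling by equal totals shifted the median gene by -0.056, -0.048 and 0.0078 in the 3 comparisons.

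Leaving out 1 library at a time gave 2609 to 3877 calls over all genes at 3 days against SB, 5913 to 7687 at 7 days against SB and 2314 to 5554 between 7 and 3 days. Members called ranged over 3 to 5, 5 to 7 and 3 to 5, other pathway genes over 9 to 16, 21 to 28 and 6 to 17, and target genes over 9 to 13, 19 to 21 and 13 to 18. The lowest counts over all genes came without 3-day replicate 1 in the first comparison and without 7-day replicate 2 in the others.

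Log2 fold changes ranged, at 3 days against SB, over 0.10 to 0.29 for YAP1, -0.29 to 0.37 for TEAD2, -0.58 to -0.32 for TEAD4 and -0.075 to 0.085 for STK3. At 7 days against SB they ranged over 0.074 to 0.26 for YAP1, 0.23 to 0.32 for WWTR1 and 0.22 to 0.36 for LATS1. Between 7 and 3 days the ranges were -0.079 to 0.025 for YAP1, 0.33 to 0.42 for WWTR1, -0.046 to 0.18 for TEAD3 and -0.56 to -0.51 for TEAD4. Among other genes, the values that changed sign at 3 days were AMOTL2 (-0.020 to 0.38), RASSF4 (-0.10 to 0.40), ANKRD1 (-0.74 to 0.51) and MOB1B (-0.12 to 0.011), and between 7 and 3 days SAV1 (-0.14 to 0.014).

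The shared replicate numbers did not pair the libraries in a uniform way. Deviations of same-numbered libraries correlated at 0.208 for SB and 3 days and -0.13 for SB and 7 days. For 3 and 7 days they correlated at -0.647, so libraries of unlike number tended to deviate together there. The replicate block gave 3943, 7546 and 4485 calls over all genes against 4170, 7851 and 4775 without it, and 4, 7 and 5 called members as without it. Crossing the 7-day numbers, added after seeing the data, gave 5404, 8763 and 5972 calls and 5, 10 and 7 members. The 10 at 7 days against SB include YAP1, TEAD1 and STK3, which the main fit did not call.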
